A study of Bos taurus with 9 samples.

Results

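Cultured cells of the bovine endometrium were given estradiol (E2) and progesterone (P4) without any interferon, and their transcripts were compared with those of untreated cells of the same culture type. The control group (CON) and the hormone group (GA) had 3 libraries each, and the 11871 genes with a mean of at least 1 FPKM over these 6 libraries were examined, of 17162 genes in the table. GA cells received 1 nM E2 and 100 nM P4 for 12 h, and CON cells received neither. A further group of 3 libraries (GB) received the same hormones for 12 h and then 100 ng/mL IFNT, the interferon of the ruminant conceptus, for an additional 12 h. GB values set beside GA may thus differ in time as well as in IFNT, and GB is used only for reference and to help estimate the spread between libraries. All groups were wild-type primary cells from Holstein uteri, purified by differential attachment over several passages and kept in DMEM/F12 medium with fetal bovine serum. Whether the serum had been freed of its own steroids, whether CON received the vehicle, whether the replicates, called biological by the study, came from separate cows, and whether GA was collected together with GB or earlier was found in no source used here. If the 3 libraries of a group are not from separate cultures or animals, the p-values measure a spread that may be technical. Levels are in FPKM, the number of fragments divided by the length of the gene's exons in kilobases and scaled to the number of mapped reads, so that genes of unequal length can be compared.

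E2 and P4 act mainly through receptors that are themselves transcription factors. Estrogen receptor alpha (ESR1) binds estrogen response elements and is known to induce PGR, the gene of the progesterone receptor, in the uterus. The progesterone receptor binds hormone response elements that the glucocorticoid receptor (NR3C1) also uses. In the ruminant uterus the order and length of exposure to these hormones set the receptor content of each endometrial layer before the conceptus signals its presence.

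The transcript markers of the CON and GA cells did not match the epithelial label, although the study checked the purity of its cultures by staining for cytokeratin 18. All 16 epithelial markers examined were under 1 FPKM in every CON and GA library, and summed to 1.6, 1.9 and 2.8 FPKM (CON) and 1.9, 2.2 and 2.7 FPKM (GA). KRT18, an epithelial keratin, was at 0.25, 0.41 and 0.16 FPKM (CON) and 0.48, 0.23 and 0.67 FPKM (GA). KRT8, its usual partner, was listed at 0, 0 and 0.55 FPKM (CON) and 0.07, 0.07 and 0.22 FPKM (GA), and CDH1, the adhesion protein of epithelia, at 0, 0.04 and 0.03 FPKM (CON) and 0.10, 0.07 and 0.04 FPKM (GA). In GB the list summed to 29.3, 30.0 and 30.0 FPKM, while KRT18 was at 0.16, 0.64 and 0.25 FPKM. The highest value of any member in GB was 27.06 FPKM, so in that library a single member made up most of the sum. By contrast, all 16 markers of stromal fibroblasts passed the filter, with summed levels of 20044 to 20841 FPKM in CON and of 20240.0 to 20714 in GA. The most abundant was VIM, a filament protein of mesenchymal cells, at 8658, 9570.1 and 9017 FPKM (CON) and 8812, 8712 and 8752 FPKM (GA). COL1A1, a chain of fibrillar collagen, was at 2544, 2335 and 2489.9 FPKM (CON) and 2348, 2438 and 2504 FPKM (GA), and PDGFRA, a growth factor receptor of fibroblasts, at 144, 158 and 149 FPKM (CON) and 153, 150.3 and 163 FPKM (GA). Smooth muscle markers were abundant as well, led by TAGLN, an actin-binding protein, at 4534, 3795 and 4601 FPKM (CON) and 5032, 5064 and 5203 FPKM (GA). Each GA library had more TAGLN than any CON library (log2FC 0.25, adjusted p = 0.114, limma, and log2FC −0.00 with the GC content of the reads as a covariate). The 9 smooth muscle markers summed to 9943, 9665 and 9961 FPKM (CON) and 10250.0, 10394 and 10219 FPKM (GA), likewise without overlap. That sum was led by TAGLN and does not stand for the list, as only 3 of the 9 markers had a positive log2FC (median −0.047). The part of this in the results was not tested. Endothelial markers summed to 2.1 to 4.4 FPKM and immune cell markers, led by CD14, to 27.7 to 31.5 FPKM over the 6 libraries, with overlapping groups in both. The cells are therefore called endometrial cells in the following text. A gene that differs in such bulk RNA can reflect fewer cells of a type or less RNA per cell, and these cannot be told apart.

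The 6 libraries were close to each other. Pearson's r of log2(FPKM + 0.5) across the tested genes was 0.990 to 0.991 within CON, 0.991 to 0.992 within GA and 0.986 to 0.991 between the groups, as a description across genes that are not independent replicates. CON2 lay farthest from the other libraries of its group, with a median difference of 0.130 on the log2 scale from their mean, against 0.0981 and 0.104 for CON1 and CON3 and 0.0783 to 0.0918 for GA. On the first principal component of these libraries (32.9% of the variance) the CON libraries had scores of −10.7, −21.0 and −3.83 and the GA libraries 9.00, 8.53 and 18.0. The FPKM values summed to 1397433, 1397166 and 1425069 in CON and to 1435457, 1442723 and 1441072 in GA, so every GA library carried a larger total. The median log2FC of all tested genes, GA minus CON, was 0.062 with the deposited values and 0.0034 after scaling with median-of-ratios factors, which set the typical gene to no difference. The GC content that the study lists for the reads was higher in every CON library than in any GA library, so GC content and hormone treatment cannot be told apart in these groups.

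Few genes passed the threshold of the test between GA and CON. In limma, fitted to all 9 libraries with Benjamini-Hochberg adjustment over the 11871 genes, 29 genes were called higher in GA (0.244% of those tested) and 24 lower (0.202%) at an adjusted p under 0.05. Of these, 5 genes (0.0421%) had a log2FC above 1 in size: GREB1 and NTS higher, LEAP2, IFITM2 and LOC107132175 lower. GREB1, LEAP2 and IFITM2 passed the filter only through the group in which they were higher and so had to differ, and their tests are not read as support. With IFNT present the share was far larger, since 34.9% of the genes were called between GB and CON and 30.2% between GB and GA in the same fit. The called differences were mostly moderate, since 29 of the 53 genes had a log2FC under 0.5 in size and the median size was 0.47. The split between rises and falls depended on scaling, with 25 genes higher and 71 lower after median-of-ratios scaling. Leaving out 1 library at a time gave 5 (without GA3) to 61 (without CON3) genes higher and 0 (without CON1) to 46 (without GB3) lower, and without CON2 the counts were 13 and 10. TOB1, RARRES1 and CYR61 were called in all 9 of these fits, GREB1 in all but the one without GA3, where its mean was under the filter, KIAA1551 in all but the one without CON1, and EGR1 in all but those without CON1 or GA3. With the GC content of the reads as a covariate limma called 0 genes, 938 genes had an unadjusted p under 0.05, against 2377 (20%) without it, and all 53 genes kept the sign of their log2FC.

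**Figure D1:**
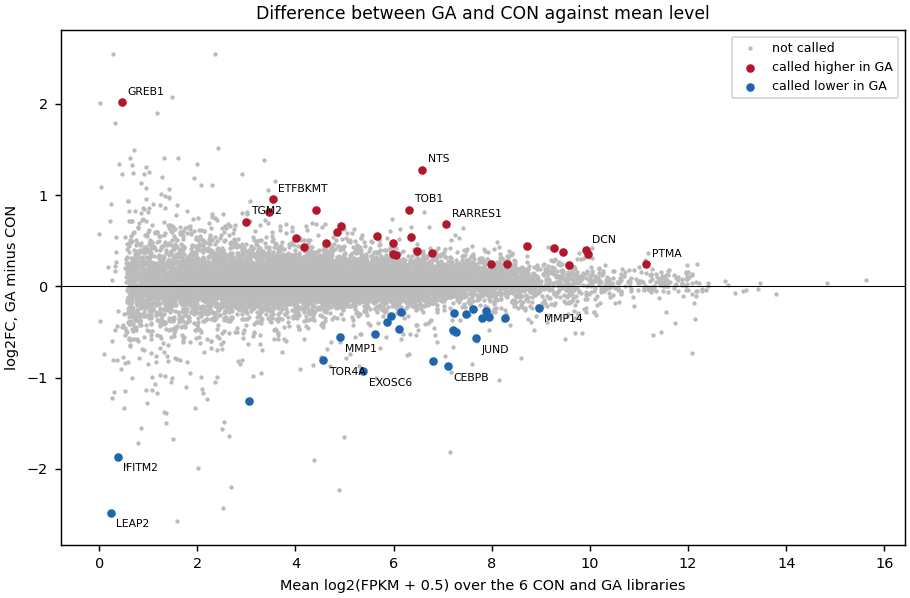
Difference between GA and CON (log2FC on the log2(FPKM + 0.5) scale, vertical axis) against the mean level over the 6 libraries (horizontal axis), 1 point per tested gene. The 29 genes called higher (red) and 24 called lower (blue) lie mostly within 1 log2 unit of 0, and genes of low level spread more widely without being called.

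Small but orderly differences were much more common than calls. All 3 GA libraries lay above all 3 CON libraries for 2290 genes (19.3%) and below them for 730 (6.15%). After median-of-ratios scaling 1291 genes (10.9%) were above and 1505 (12.7%) below, so the direction of the excess depended on scaling. Of the 3020 genes whose groups did not overlap with the deposited values, 2783 (92.2%) had a log2FC under 0.5 in size, 1165 of those above and 347 of those below being under 0.2. A log2FC over 1 in size was seen for 16 genes above and 29 below. For a single gene an exact permutation test of 3 against 3 libraries cannot give a two-sided p under 0.1, so no overlap between the groups is given as a description. If the group labels meant nothing, a gene would show no overlap, above or below, with that same probability of 0.1. Part of these genes is thus expected without any difference. The lowest mean inside the filter was that of ROBO2 (1 FPKM) and the highest outside it that of FOXD1 (0.998 FPKM).

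Among the receptors, ESR1 was present at a low level and did not move detectably. It was at 6.79, 9.67 and 7.95 FPKM (CON) and 6.90, 8.13 and 9.21 FPKM (GA), and the groups overlapped fully (log2FC −0.00, 95% interval −0.33 to 0.32). PGR was at 11.2, 11.7 and 11.2 FPKM (CON) and 14.3, 15.1 and 16.6 FPKM (GA). Every GA library was above every CON library, a mean level 35.0% higher, with a log2FC of 0.41 (SE 0.078) that missed the threshold (adjusted p = 0.0613, limma). NR3C1, the glucocorticoid receptor, was at 10.9 ± 1.15 FPKM (SD, n = 3) in CON and 12.0 ± 0.701 in GA, with overlapping groups. PGRMC1, a membrane-associated progesterone-binding protein, was at 129 ± 13.1 FPKM (SD, n = 3) in CON and 139.5 ± 8.72 in GA, and its relative PGRMC2 at 158 ± 12.1 FPKM (SD, n = 3) in CON and 175 ± 7.16 in GA, again overlapping. Estrogen receptor beta (ESR2), the membrane estrogen receptor GPER1, the mineralocorticoid receptor NR3C2 and the oxytocin receptor OXTR were all under the filter, with OXTR at 0.09, 0 and 0.17 FPKM (CON) and 0.26, 0.08 and 0 FPKM (GA).

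Of the 21 tested steroid receptors and coregulators 1 was called higher, where 0.244% of all genes were, and 4 were above CON in every GA library (19.0%) and 1 below (4.76%), near the 19.3% and 6.15% of all genes. After median-of-ratios scaling 3 (14.3%) were above and 4 (19.0%) below, against 10.9% and 12.7%. The called gene was PTGES3, which encodes the p23 cochaperone that holds steroid receptors ready for hormone and was also described as a prostaglandin E synthase. It rose from 522, 506 and 580.5 FPKM to 693, 703 and 751, by 0.42 on the log2 scale (SE 0.067, adjusted p = 0.0394, limma), and the difference was 0.20 with the GC covariate. HSP90AA1, the chaperone partner of these receptors, was at 883, 866 and 886 FPKM (CON) and 968, 941 and 942 FPKM (GA), without overlap but with a log2FC of only 0.11 (adjusted p = 0.121, limma).

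GREB1, an estrogen-induced gene that binds ESR1 and acts as its cofactor, had the largest rise of the called genes. It was at 0.09, 0.11 and 0.38 FPKM (CON) and 2.23, 2.12 and 2.44 FPKM (GA), so it was nearly silent in CON, with CON3 the highest of the 3, and low but present in every GA library. GREB1 passed the filter only through its GA values, so its test is given as a description. Its log2FC was 2.02 (SE 0.20, adjusted p = 0.00874, limma), 1.98 after median-of-ratios scaling, 1.84 with the GC covariate and 1.94 without CON2. The GB libraries, which had the same hormones, were at 2.51, 2.48 and 2.03. NTS, which encodes the peptide neurotensin, rose from 68.9, 47.0 and 70.0 FPKM to 132, 146 and 171, a log2FC of 1.28 (SE 0.16, adjusted p = 0.0149, limma). The 3 GA libraries were all above CON, CON2 was the lowest of the 6, and the log2FC was 1.09 without CON2 but only 0.57 with the GC covariate.

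The remaining estrogen response genes did not move together. Of 44 such genes with a value, 30 passed the filter. Of these 2 were called higher (GREB1 and NTS) and 0 lower, where 0.244% and 0.202% of all genes were. GREB1 passed the filter only through its GA values, so its call is not read as support. In limma 12 of the 30 (40%) had an unadjusted p under 0.05, against 20% of all tested genes. In 6 of the 30 (20%) all GA libraries were above CON and in 7 (23.3%) below, against 19.3% and 6.15% of all genes. The median log2FC was −0.076, against 0.062 for all tested genes. After median-of-ratios scaling 4 (13.3%) were above and 10 (33.3%) below, against 10.9% and 12.7%. TGFA, an epidermal growth factor receptor ligand, was at 14.2, 17.5 and 12.9 FPKM (CON) and 27.0, 18.2 and 24.2 FPKM (GA), above CON in each GA library at an adjusted p of 0.0974 (limma), but overlapping after median-of-ratios scaling. MYC, a growth-promoting transcription factor, was at 72.2, 60.5 and 73.2 FPKM (CON) and 76.1, 78.3 and 75.7 FPKM (GA), with a log2FC of 0.16 that turned to −0.06 with the GC covariate. Among those lower in every GA library, VEGFA, the angiogenic growth factor, was at 168, 178 and 213 FPKM (CON) and 143, 141 and 148 FPKM (GA). CCND1, the cyclin that opens G1, was at 877, 908 and 903 FPKM (CON) and 864, 867 and 841 FPKM (GA), a log2FC of −0.06. Neither passed the threshold (adjusted p = 0.139 and adjusted p = 0.306, limma). TFF1 and TFF3 were not analysed here.

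**Figure D2:**
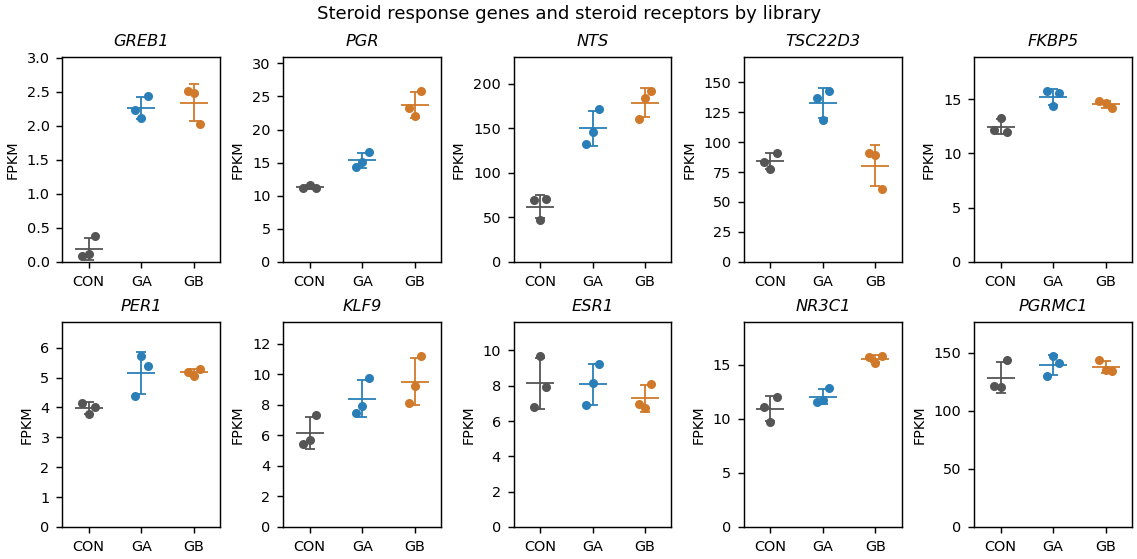
FPKM of steroid response genes and receptors in each of the 9 libraries, with 1 point per library and the mean ± SD of the 3 libraries of CON, GA and GB, each vertical axis starting at 0. GREB1, PGR, NTS, TSC22D3, FKBP5, PER1 and KLF9 have no overlap between GA and CON, whereas ESR1, NR3C1 and PGRMC1 overlap.

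Progesterone response genes known from the uterus were close to their control level. Of 34 such genes with a value, 20 passed the filter and limma called 0 of them, with 2 (10%) at an unadjusted p under 0.05, against 20% of all tested genes. In 3 genes (15.0%) all GA libraries were above CON and in 0 below, against 19.3% and 6.15% of all genes. The median log2FC was 0.039, and −0.022 after median-of-ratios scaling. With that scaling 0 genes were above and 2 (10.0%) below, against 10.9% and 12.7% of all genes. HAND2, a transcription factor that P4 induces in endometrial stroma, was at 74.1, 63.0 and 73.1 FPKM (CON) and 74.1, 78.1 and 79.6 FPKM (GA). FOXO1, a factor of decidual cells, was at 9.65, 8.83 and 7.96 FPKM (CON) and 8.46, 9.52 and 9.91 FPKM (GA). Both overlapped between the groups. Their log2FC were 0.14 (95% interval −0.01 to 0.30) and 0.07 (95% interval −0.22 to 0.36). SPP1, the adhesion protein osteopontin, was very abundant at 3325, 3550.2 and 3407 FPKM (CON) and 3683, 3660.3 and 3682 FPKM (GA), slightly above CON in every GA library (log2FC 0.10) and overlapping after median-of-ratios scaling. DKK1, a secreted WNT inhibitor, was at 279.7, 276 and 251 FPKM (CON) and 321, 324 and 290.4 FPKM (GA), with an adjusted p of 0.111 in limma, and it too overlapped after median-of-ratios scaling. Uterine genes such as IHH, SERPINA14, LTF and IGFBP1 were under the filter.

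Genes with elements that the progesterone and glucocorticoid receptors share showed the most frequent small elevations of the steroid lists. This list, like the others, was written with earlier results of these data known, so its counts are a description only. Of 20 tested, 9 (45.0%) had all GA libraries above CON and 2 (10.0%) below, against 19.3% and 6.15% of all tested genes. With median-of-ratios scaling the counts were 6 (30.0%) and 4 (20%), against 10.9% and 12.7%, and the median log2FC was 0.14 before and 0.081 after this scaling. None of the 9 passed the threshold, and the 1 called member, CEBPB, was lower. TSC22D3, which encodes the glucocorticoid-induced leucine zipper protein, was at 83.8, 77.4 and 91.2 FPKM (CON) and 137, 119 and 142 FPKM (GA), a mean level 57.5% higher in GA (log2FC 0.65, SE 0.15, adjusted p = 0.0808, limma). In GB it was at 90.9, 89.4 and 60.5, within the range of CON or below it, and below every GA library. FKBP5, a cochaperone that curbs steroid receptor sensitivity, was at 12.2, 13.2 and 12.0 FPKM (CON) and 15.7, 14.4 and 15.6 FPKM (GA) (log2FC 0.28, and 0.40 with the GC covariate). ERRFI1, a feedback inhibitor of epidermal growth factor receptors, was at 138, 138 and 149.7 FPKM (CON) and 167, 163 and 175 FPKM (GA). PER1, a clock gene, was at 4.14, 3.77 and 4.02 FPKM (CON) and 4.38, 5.71 and 5.38 FPKM (GA). KLF9, a steroid-regulated transcription factor, was at 5.45, 5.71 and 7.34 FPKM (CON) and 7.50, 7.95 and 9.78 FPKM (GA). The log2FC were 0.33 and 0.42, and that of KLF9 went to −0.00 with the GC covariate. SGK1, RHOB, RASD1 and MAOA were the other members above CON, with log2FC of 0.25, 0.14, 0.32 and 0.34. ZBTB16, PDK4 and KLF15, well-known steroid targets in other cells, were under the filter.

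Transcription factors of the immediate early kind differed in both directions. Of 40 tested immediate early and short regulatory genes 1 was called higher and 2 lower, against 0.244% and 0.202% of all genes, while 6 (15.0%) had all GA libraries above CON and 12 (30.0%) below, against 19.3% and 6.15%. The median log2FC was −0.072, and after median-of-ratios scaling 4 (10.0%) were above and 17 (42.5%) below, against 10.9% and 12.7%. EGR1, a zinc-finger factor induced by growth signals, rose from 22.1, 23.0 and 26.5 FPKM to 37.6, 36.7 and 39.3, a log2FC of 0.66 (SE 0.073, adjusted p = 0.0126, limma), and was at 28.2, 26.2 and 26.1 in GB. FOS and JUN, partners in AP-1, were above CON in every GA library without a call, with FOS at 34.2, 30.9 and 40.9 FPKM (CON) and 44.6, 42.0 and 49.3 FPKM (GA). JUN was at 42.4, 39.8 and 39.4 FPKM (CON) and 51.1, 44.5 and 49.6 FPKM (GA). JUND, another AP-1 subunit, fell from 255, 239 and 256 FPKM to 177, 159.6 and 169 (log2FC −0.57, SE 0.071, adjusted p = 0.0149, limma). CEBPB, a bZIP factor of the decidual and inflammatory response, fell from 194, 177 and 187 FPKM to 115, 94.2 and 95.2, a log2FC of −0.88 (SE 0.14, adjusted p = 0.0394, limma). Its relative CEBPD was at 235, 223 and 152 FPKM (CON) and 110.4, 105 and 97.3 FPKM (GA), also without overlap, with a wide spread in CON and an adjusted p of 0.122 (limma). A wide CON spread was also seen for ID4, an inhibitor of helix-loop-helix factors, at 53.5, 40.9 and 28.4 FPKM (CON) and 12.8, 10.7 and 7.90 FPKM (GA), with a log2FC of −1.90, a SE of 0.49 and an adjusted p of 0.107 in limma. GAS1, a membrane protein linked to growth arrest, was at 8.15, 6.84 and 5.77 FPKM (CON) and 2.42, 3.83 and 3.09 FPKM (GA) (adjusted p = 0.0616, limma). In all of these genes the sign held with median-of-ratios scaling and with the GC covariate.

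Among the called genes outside the steroid lists the largest rises were those of TOB1, KIAA1551, OTULINL, ETFBKMT, TGM2 and RARRES1. TOB1, an antiproliferative protein of the BTG/TOB family, rose from 55.1, 57.9 and 62.9 FPKM to 103, 100.4 and 113. Its groups stood far apart, with a log2FC of 0.84 (SE 0.061, adjusted p = 0.00227, limma) and a range of 0.79 to 0.89 when single libraries were left out. RARRES1, a retinoid-induced membrane protein, rose from 111, 96.1 and 109 FPKM to 175, 169.6 and 165 (log2FC 0.69, SE 0.059, adjusted p = 0.00516, limma). KIAA1551 went from 14.8, 14.8 and 17.2 FPKM to 26.3, 26.8 and 31.8, about as large a change. TGM2, a protein-crosslinking transglutaminase, rose from 6.20, 5.96 and 5.07 FPKM to 9.99, 8.39 and 10.8, and higher still in GB at 21.7, 18.4 and 20.1. ETFBKMT, a mitochondrial lysine methyltransferase, had a log2FC of 0.95, and OTULINL one of 0.81. Smaller rises in HAUS2, a subunit of the augmin complex of the spindle, C3H1orf52 and C1H21orf62 had log2FC of 0.55, 0.59 and 0.54, and the last was called in 0 of the 9 fits with a library left out.

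Several abundant genes rose by small amounts that exceeded a tight spread. CYR61, a matrix-associated growth regulator of the CCN family, was at 630.0, 585 and 629 FPKM (CON) and 803, 809 and 783 FPKM (GA), a mean level 29.9% higher in GA (adjusted p = 0.00953, limma). XDH, the enzyme that makes uric acid, was at 52.1, 51.2 and 56.6 FPKM (CON) and 70.8, 73.7 and 78.7 FPKM (GA). CAST, the inhibitor of calpain proteases, was at 373, 337 and 377 FPKM (CON) and 493, 469.8 and 520.1 FPKM (GA). Both passed (adjusted p = 0.0149 and adjusted p = 0.0149, limma), with log2FC of 0.48 and 0.45. PTMA, the nuclear protein prothymosin alpha, was the most abundant gene called, at 2115, 2083 and 2072 FPKM (CON) and 2510.1, 2454 and 2466 FPKM (GA), a mean level 18.5% higher. ICAM1, an adhesion molecule for leukocytes, rose from 101, 94.7 and 94.7 FPKM to 123, 122 and 129, a mean level 29.2% higher. After median-of-ratios scaling the call of PTMA was lost (adjusted p = 0.0683, limma) and that of ICAM1 was kept (adjusted p = 0.0319).

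On the falling side, LEAP2, which encodes a liver-type antimicrobial peptide and ghrelin receptor antagonist, was at 2.37, 2.44 and 2.09 FPKM in CON and listed at 0 in all GA and GB libraries. No fold is given, and at such levels the call may rest on few reads. IFITM2, an interferon-induced membrane protein with near-identical relatives among which reads may be split, was at 2.25, 2.24 and 1.52 FPKM (CON) and 0, 0.75 and 0 FPKM (GA). LOC107132175 was at 14.6, 12.6 and 10.3 FPKM (CON) and 3.83, 5.27 and 5.75 FPKM (GA). All 3 of these genes were low, and none overlapped between the groups. EXOSC6, a subunit of the RNA exosome, fell from 56.5, 52.5 and 62.2 FPKM to 32.5, 27.1 and 29.6 (log2FC −0.93, SE 0.15), and ALKAL1, a secreted ligand of the ALK receptor, from 136, 134 and 177 to 85.8, 87.7 and 76.4 FPKM (log2FC −0.82, SE 0.13). TOR4A fell from 29.2, 32.2 and 31.2 FPKM to 19.3, 18.1 and 15.0 and LOC112441463 from 59.8, 54.8 and 60.6 to 37.8, 40.7 and 43.5. DES, the intermediate filament of muscle cells, fell from 248, 258 and 245 FPKM to 199, 202 and 189.6, a mean level 21.5% lower (log2FC −0.35, SE 0.040, adjusted p = 0.0149, limma). Of the 9 smooth muscle markers 1 was called lower and 0 higher, where 0.202% and 0.244% of all genes were. In 3 (33.3%) all GA libraries were below CON and in 1 (11.1%, TAGLN) above, against 6.15% and 19.3% of all genes. After median-of-ratios scaling 4 (44.4%) were below and 1 (11.1%) above, against 12.7% and 10.9%. The 9 markers did not share a direction, and their summed level, led by TAGLN, was higher in GA as given above. ACTG2, a smooth muscle actin, was at 382, 437 and 388 FPKM (CON) and 339.5, 352 and 329.6 FPKM (GA), and CNN1, calponin, at 658, 704 and 649.6 FPKM (CON) and 594, 612 and 566 FPKM (GA), log2FC of −0.24 and −0.18 that shrank to −0.06 and −0.02 with the GC covariate. WWTR1, the coactivator TAZ of Hippo signalling, fell from 168, 159 and 171 FPKM to 136, 136 and 134 (log2FC −0.29, SE 0.041, adjusted p = 0.0287, limma).

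Enzymes that degrade the extracellular matrix were among the genes that fell. These families were chosen after their values were seen, so their counts are a description only. Of 12 tested matrix metalloproteinases 3 were called lower, 5 (41.7%) were below CON in every GA library and 1 (8.33%) above, where 0.202% of all genes were called lower, 6.15% were below and 19.3% above. MMP1, interstitial collagenase, fell from 34.2, 34.0 and 39.8 FPKM to 22.9, 24.3 and 25.6, a mean level 32.6% lower (log2FC −0.56, SE 0.080, adjusted p = 0.031, limma). MMP3, stromelysin, fell from 172, 168 and 185 FPKM to 116, 131 and 132 (log2FC −0.47, SE 0.059, adjusted p = 0.0149, limma). MMP14, the membrane protease that activates MMP2, fell by less, from 518, 551 and 543 FPKM to 450.1, 456 and 463. By comparison MMP2, gelatinase A, the most abundant member, hardly differed, at 2376, 2341 and 2380.0 FPKM (CON) and 2291, 2335 and 2334 FPKM (GA) (log2FC −0.03). In GB the values were lower than in GA for MMP1 (17.2, 19.4 and 19.1 FPKM) and for MMP3 (84.9, 85.2 and 85.9 FPKM). Among 11 ADAMTS proteases 1 was called, ADAMTS5, an aggrecan-cleaving enzyme, which fell from 67.3, 65.7 and 66.0 FPKM to 48.5, 50.5 and 53.0 (log2FC −0.39, SE 0.047, adjusted p = 0.0149, limma). A further 3 of them, ADAMTS1, ADAMTS7 and ADAMTS9, were below CON in every GA library, and 0 were above. After median-of-ratios scaling 6 metalloproteinases (50.0%) and 8 ADAMTS genes (72.7%) were below, against 12.7% of all genes.

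In the plasminogen activator system the urokinase gene and that of its receptor fell. PLAU, the urokinase that activates plasmin, fell from 167, 199.6 and 182 FPKM to 119.7, 124 and 144, and its receptor PLAUR from 323, 373 and 346 to 279, 268 and 273 FPKM. Their log2FC were −0.50 (SE 0.081) and −0.34 (SE 0.057), with limma adjusted p-values of 0.0416 and 0.0489. The metalloproteinase inhibitors TIMP1, at 2164, 2499 and 2279.8 FPKM (CON) and 2573, 2627 and 2684 FPKM (GA), and TIMP2, at 975, 992 and 933 FPKM (CON) and 793, 769 and 792 FPKM (GA), differed in direction without a call, and TIMP1 overlapped after median-of-ratios scaling. PLAT, the tissue-type activator, was at 194, 202 and 196 FPKM (CON) and 194, 195 and 193 FPKM (GA), a log2FC of −0.02.

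**Figure D3:**
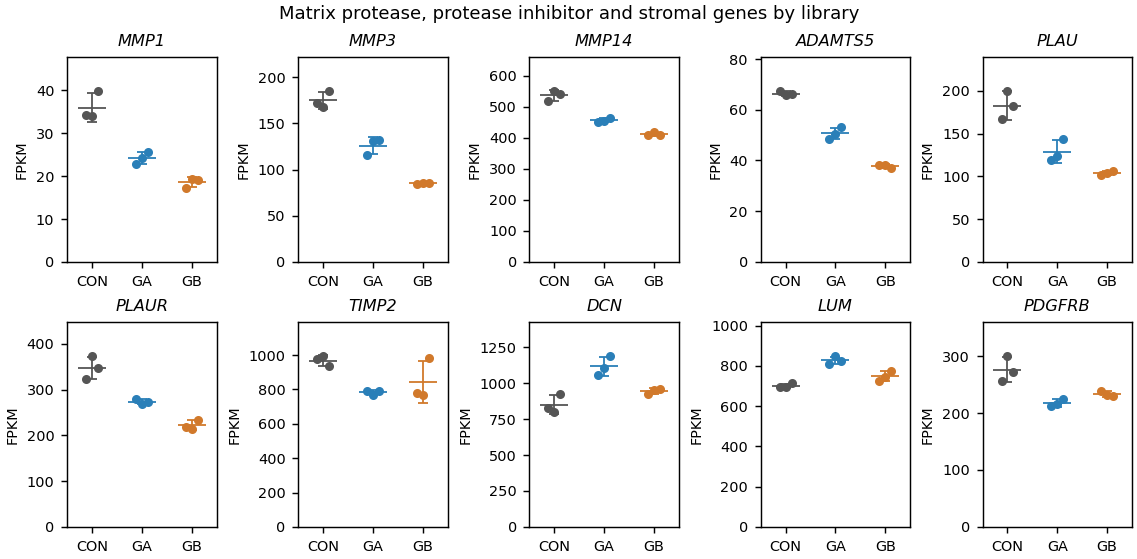
FPKM of matrix proteases, the plasminogen activator genes and stromal genes in each library, with 1 point per library and the mean ± SD of the 3 libraries of CON, GA and GB, each vertical axis starting at 0. MMP1, MMP3, MMP14, ADAMTS5, PLAU, PLAUR, TIMP2 and PDGFRB are lower in every GA library than in any CON library, and DCN and LUM are higher.

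Called stromal markers changed in both directions. DCN, the small proteoglycan decorin that coats collagen fibrils, rose from 829, 798 and 922 FPKM to 1056, 1106 and 1187 (log2FC 0.39, SE 0.061, adjusted p = 0.0394, limma, and log2FC 0.20 with the GC covariate). LUM, the related lumican, rose from 695, 694 and 714 FPKM to 809, 847 and 824 (log2FC 0.24, SE 0.038, adjusted p = 0.0394, limma), a call that was lost after median-of-ratios scaling. PDGFRB, a receptor of stromal and perivascular cells, fell from 256, 299.6 and 272 FPKM to 212, 216 and 225 (log2FC −0.34, SE 0.057, and −0.19 with the GC covariate), a call made in 0 of the 9 fits with a library left out. Of the 16 stromal markers these 3 were called, 2 higher and 1 lower, where 0.244% and 0.202% of all genes were called. In 2 (12.5%) all GA libraries were above CON and in 2 (12.5%) below, against 19.3% and 6.15%, and after median-of-ratios scaling in 2 (12.5%) and 6 (37.5%), against 10.9% and 12.7%. The median log2FC was −0.012, and the summed level of the list overlapped between the groups. The small leucine-rich proteoglycans, the family of DCN and LUM, were chosen after the values were seen. Of 9 tested 2 were called higher and 0 lower. In 5 (55.6%) all GA libraries were above CON and in 1 (11.1%) below, against 19.3% and 6.15% of all genes. After median-of-ratios scaling 4 (44.4%) were above and 1 (11.1%) below, against 10.9% and 12.7%. Collagen chains, also chosen after the values were seen, had 0 calls among 23 tested, with 6 (26.1%) at an unadjusted p under 0.05 in limma, against 20% of all tested genes. Of the 23 chains 6 (26.1%) were above and 3 (13.0%) below CON in every GA library, against 19.3% and 6.15% of all genes. After median-of-ratios scaling 1 (4.35%) was above and 7 (30.4%) below, against 10.9% and 12.7%.

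The IGF system, which carries growth signals from stroma to epithelium and conceptus, gave no call and had mostly negative differences. Of 16 tested genes limma called 0, with 4 (25%) at an unadjusted p under 0.05, against 20% of all tested genes, while 6 (37.5%) had all GA libraries below CON and 1 (6.25%) above, against 6.15% and 19.3% of all tested genes. The median log2FC was −0.18, −0.23 after median-of-ratios scaling and −0.26 with the GC covariate, and 2 of the 16 genes were above 0. The binding protein genes were the clearest, with the growth-modulating IGFBP5 at 7.46, 11 and 8.86 FPKM (CON) and 5.27, 4.40 and 5.02 FPKM (GA) (log2FC −0.82, SE 0.15, adjusted p = 0.0613, limma). IGFBP7 was at 1044, 1046 and 889 FPKM (CON) and 759, 774 and 801 FPKM (GA). IGFBP2 was at 222, 208 and 186 FPKM (CON) and 173, 179 and 178 FPKM (GA). In both every GA library was below every CON library. IGFBP6, the most abundant of the list, overlapped at 1132, 1004 and 1184 FPKM (CON) and 1044, 1069 and 1093 FPKM (GA).

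In the prostaglandin pathway neither cyclooxygenase gene passed the test. PTGS2, the inducible cyclooxygenase, was at 88.2, 93.2 and 85.3 FPKM (CON) and 81.1, 85.6 and 71.9 FPKM (GA), a log2FC of −0.16 (95% interval −0.33 to 0.00). PTGS1, the constitutive form, was at 71.4, 71.8 and 76.7 FPKM (CON) and 61.9, 61.2 and 75.3 FPKM (GA), a log2FC of −0.15 (95% interval −0.34 to 0.03). The groups overlapped in both genes. AKR1B1, an aldose reductase that makes prostaglandin F2 alpha in bovine endometrium, was at 273, 244 and 289 FPKM (CON) and 326, 298 and 328 FPKM (GA), above CON in every GA library with an adjusted p of 0.122 in limma. HPGD, which inactivates prostaglandins, was at 19.6, 20.6 and 21.9 FPKM (CON) and 15.6, 16.9 and 15.3 FPKM (GA), a log2FC of −0.36 (SE 0.069) that just missed the threshold (adjusted p = 0.0616, limma) and passed it after median-of-ratios scaling (adjusted p = 0.0323, limma). Of 11 tested genes in this list 1, PTGES3, was called higher and 0 lower, where 0.244% and 0.202% of all genes were. In every GA library 2 (18.2%) were above and 1 (9.09%) below CON, near the 19.3% and 6.15% of all genes. After median-of-ratios scaling 2 (18.2%) were above and 3 (27.3%) below, against 10.9% and 12.7%.

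Cell cycle and DNA replication genes had no call among 36 tested in limma, with 12 (33.3%) at an unadjusted p under 0.05, against 20% of all tested genes. In 11 of them (30.6%) all GA libraries were above CON, and in 4 (11.1%) below, against 19.3% and 6.15% of all genes. After median-of-ratios scaling 9 (25.0%) were above and 7 (19.4%) below, against 10.9% and 12.7%. The median log2FC of 0.097 was 0.037 after median-of-ratios scaling and −0.0093 with the GC covariate. GINS2, a subunit of the replicative helicase complex, was at 55.0, 58.3 and 63.4 FPKM (CON) and 72.4, 72.9 and 82.2 FPKM (GA), and CCNA2, the S-phase cyclin, at 167, 144 and 162 FPKM (CON) and 188, 184 and 184 FPKM (GA). Both were above CON in every GA library. CDT1, which licenses replication origins, was lower at 42.1, 38.4 and 38.9 FPKM (CON) and 33.1, 32.4 and 34.6 FPKM (GA), while GMNN, the inhibitor of CDT1, was called higher at 55.5, 55.6 and 63.7 FPKM (CON) and 73.5, 74.2 and 74.5 FPKM (GA) (adjusted p = 0.0489, limma). GINS3, of the same complex as GINS2, was also called higher, at 12.9, 13.5 and 12.1 FPKM (CON) and 18.6, 19.9 and 17.8 FPKM (GA). Neither GMNN nor GINS3 was a member of the list.

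Interferon-stimulated genes gave no call in the absence of IFNT. Of 25 tested limma called 0, with 8 (32%) at an unadjusted p under 0.05, against 20% of all tested genes, and their median log2FC was 0.018, and −0.039 after median-of-ratios scaling. In 4 (16%) all GA libraries were above CON and in 3 (12.0%) below, against 19.3% and 6.15% of all tested genes. Their summed level was 346 to 394 FPKM in CON and 376 to 399 in GA. IFI6, a mitochondrial interferon-induced protein, was at 16.5, 15.3 and 17.8 FPKM (CON) and 13.8, 8.08 and 8.43 FPKM (GA), lower in every GA library with an adjusted p of 0.0833 in limma. USP18, the protease that removes ISG15 from proteins, was at 3.71, 2.51 and 3.30 FPKM (CON) and 4.07, 4.33 and 4.53 FPKM (GA), and the log2FC of 0.40 turned to −0.03 with the GC covariate. IFITM2, named above, was not on this list.

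Other lists showed no calls. Of 30 heat shock and unfolded protein response genes limma called 0, with 9 (30%) at an unadjusted p under 0.05, against 20% of all tested genes. In 10 of the 30 (33.3%) all GA libraries were above CON and in 4 (13.3%) below, against 19.3% and 6.15% of all genes. After median-of-ratios scaling 4 (13.3%) were above and 4 (13.3%) below, against 10.9% and 12.7%. HSPA5, the endoplasmic reticulum chaperone, was at 539, 522 and 537 FPKM (CON) and 598, 595 and 607 FPKM (GA) (adjusted p = 0.0616, limma). HSPB1, a small heat shock protein, was below CON in every GA library at 2524, 2422 and 2529 FPKM (CON) and 2358, 2392 and 2394 FPKM (GA), a log2FC of −0.07. Of 26 cholesterol synthesis and uptake genes 0 were called and 8 (30.8%) had an unadjusted p under 0.05 in limma, against 20% of all tested genes, 3 (11.5%) being above and 5 (19.2%) below in every GA library, against 19.3% and 6.15% of all genes. After median-of-ratios scaling 2 (7.69%) were above and 9 (34.6%) below, against 10.9% and 12.7%. MSMO1, a sterol oxidase, was at 49.8, 42.5 and 44.9 FPKM (CON) and 58.5, 61.0 and 61.6 FPKM (GA), whereas INSIG1, the sterol sensor partner, was at 38.4, 50.0 and 44.0 FPKM (CON) and 33.0, 37.0 and 36.5 FPKM (GA). Of 14 steroid metabolism genes 0 were called and 4 (28.6%) had an unadjusted p under 0.05 in limma, against 20% of all tested genes. In every GA library 2 (14.3%) were above and 1 (7.14%) below CON, near the 19.3% and 6.15% of all genes. After median-of-ratios scaling 1 (7.14%) was above and 1 (7.14%) below, against 10.9% and 12.7%. CYP1B1, an estrogen hydroxylase, was above at 60.9, 62.5 and 69.2 FPKM (CON) and 70.2, 73.1 and 84.0 FPKM (GA). POR, the electron donor of cytochrome P450 enzymes, was below at 111, 119 and 110.4 FPKM (CON) and 102, 105 and 102 FPKM (GA). Of 14 reference genes used for normalization in other work 0 were called, but 5 (35.7%) were above CON in every GA library, against 19.3% of all genes, and 4 (28.6%) after median-of-ratios scaling, against 10.9%, with 5 (35.7%) at an unadjusted p under 0.05 in limma, against 20% of all tested genes.

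**Figure D4:**
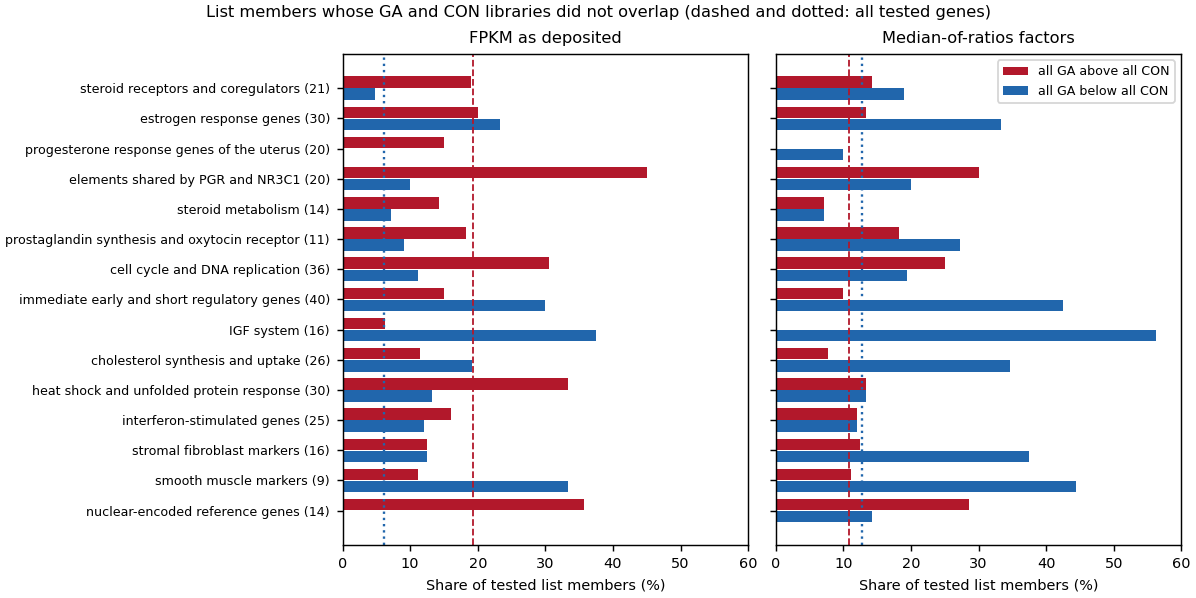
Share of the tested members of each list (number tested in brackets, lists of at least 8) whose 3 GA libraries lay all above (red) or all below (blue) the 3 CON libraries, with the deposited FPKM (left) and after median-of-ratios scaling (right). The dashed red and dotted blue lines mark all tested genes, 19.3% and 6.15% on the left and 10.9% and 12.7% on the right.

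The GC covariate changed the size of single differences unevenly. Over the 53 called genes the median size of the log2FC was 0.47 without and 0.43 with the covariate, and 47 of the 53 had an unadjusted p under 0.05 with it. GREB1, TOB1, MMP1, MMP3 and JUND kept most or all of their difference, at 1.84, 0.76, −0.77, −0.60 and −0.72. The differences of NTS, HAUS2, PTGES3, DCN and C3H1orf52 were smaller with it, at 0.57, 0.26, 0.20, 0.20 and 0.31, and so were those of EHBP1L1 and PDGFRB, at −0.14 and −0.19.

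**Figure D5:**
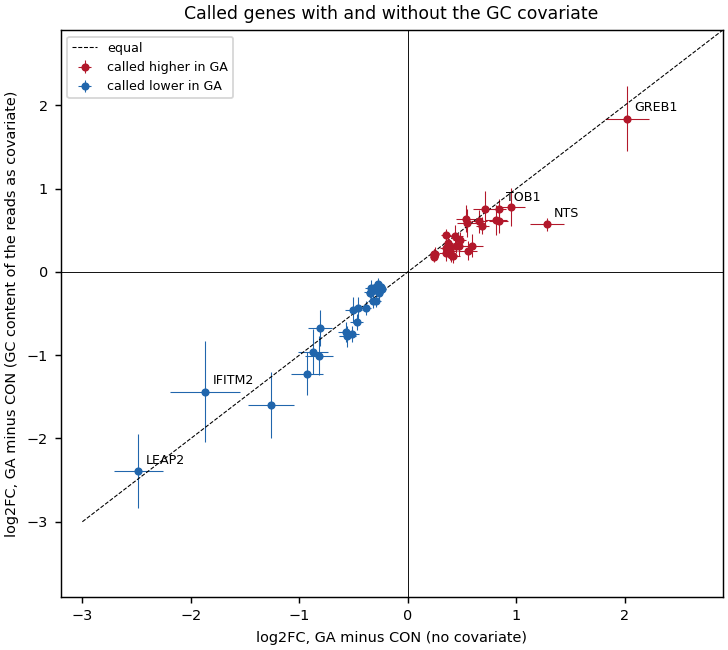
log2FC of GA minus CON for the 53 called genes without a covariate (horizontal axis) and with the GC content of the reads of each library as a covariate (vertical axis), with bars of 1 SE. The points follow the dashed line of equality and keep their signs, and NTS lies well below it.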

How the data were processed

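Per the labels and methods, mRNA was captured on poly-T beads and made into directional libraries. The authors trimmed reads with fastp 0.21.0, removed rRNA with Bowtie2 2.33, aligned to ARS-UCD1.2 with HISAT2 2.2.1 and counted with RSEM 1.3.3 (versions as in the submitters' processing notes). The deposited values are FPKM per gene and library, scaled by the authors to exon length and mapped reads and given to 2 decimals, so values near 0 are coarse. No counts were used, and depth could not be read from the values. No further scaling was applied. The 11871 genes past the filter were tested on log2(FPKM + 0.5) with limma 3.58.1 in R 4.3.3. The fit had a variance trend, a mean for each of the 3 groups and all 9 libraries in 1 fit. A log2FC on this scale understates changes of low genes. Called means an adjusted p under 0.05.

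The genes examined, lists and alternatives were chosen with earlier results of these data known. Named were, per direction, the 12 called genes of largest log2FC and the 8 of smallest p at a mean FPKM of at least 20, both without overlap, up to 4 members per list, steroid receptors and cell markers. The matrix gene families, and others such as PTMA, ICAM1, GMNN, CEBPD, ID4, VEGFA and FOXO1, were chosen after their values were seen. Read GC content, used as a covariate in an alternative fit, came from the study's supplementary material. The authors' own test used DESeq2 1.34.0 on counts. With 3 libraries in a group, no test for an outlying library was made. Some genes are not reported here.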

Additional observations from a re-analysis of the deposited data

How the results depend on the processing

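The number of calls depended on scaling and on single libraries, while each of the 53 called genes kept its sign in every alternative that tested it. All 53 had groups without overlap. Leaving out a library or changing the filter, the pseudocount or the variance trend could therefore not reverse a sign. As reported, 29 genes were called higher (54.7% of calls) and 24 lower, 5 with a log2FC above 1 in size, and 2290 and 730 genes had no overlap above and below. Median-of-ratios factors gave 25 higher (26.0%) and 71 lower, 8 large, and 1291 above and 1505 below. Quantile normalization gave 28 and 59, 8 large, and 1341 above and 1429 below. TPM gave 26 and 46, 2 large, and 1648 above and 1098 below. A filter at a mean FPKM of 2 left 2 large changes, a pseudocount of 0.1 left 3, and no filter gave 18 higher and 16 lower. The fit of the 6 CON and GA libraries gave 15 higher and 27 lower, 9 large, and without the variance trend 5 and 1, 2 large. At an adjusted p under 0.1 there were 266 higher and 117 lower, 21 large. The cause of these differences was not tested. Single libraries left out gave 5 to 61 higher, 0 to 46 lower and 1 to 10 large.

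With the GC covariate limma called 0 genes (938 at an unadjusted p under 0.05), and 0 with the replicate block added (947); GB vs. CON then had 1426 and 470 calls. The sign changed in both for CD68 (−0.11, −0.30), EIF2AK2 (−0.0028, −0.016), FN1 (0.022, 0.030), HSPA1A (0.023, 0.074), MYC (−0.065, −0.054), SUZ12 (−0.012, −0.043), TAGLN (−0.0047, −0.064) and USP18 (−0.027, −0.15), in the first for HSPA4 (−0.0073) and YWHAZ (−0.022), and in the second for INSIG1 (0.0095) and MSMO1 (−0.093), none of which was called. The replicate block alone gave 32 higher and 19 lower, 3 large, with 30 of the 53 calls shared. Same-numbered CON and GA libraries had correlations of deviations of 0.030, 0.017 and 0.12. With 3 libraries in a group such values cannot show whether same-numbered libraries share an origin, and the main fit used no pairing.

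A correction for the GC content of each gene, with or without the block, was not run, as no sequence of the build was used here. Depth and few reads limit genes near 1 FPKM.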
